A study of Mus musculus with 12 samples.

Results

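The transcripts of 45 genes that build and acidify the lysosome were followed in mouse macrophages given a plasminogen preparation. The genes encode subunits of the vacuolar proton pump, lysosomal membrane proteins, 2 transcription factors of the lysosomal programme, cofactor precursors and hydrolases, and cathepsins were left out. Members were found by their gene symbol, and all 45 were among the 32246 genes of the deposited table. Of these, 44 passed the filter on low values and were tested, while Sgsh stayed below it.

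The cells were differentiated from bone marrow over 7 days in 50 ng/mL GM-CSF, a cytokine that drives myeloid precursors toward macrophages and related cells. In the PLG+EACA group they received plasminogen (PLG, the inactive precursor of the protease plasmin) that had been exposed to EACA, a lysine analogue that occupies the lysine-binding sites of plasminogen. The PLG+EACA+RNase group received plasminogen exposed to both EACA and RNases, and the untreated group received neither preparation. Exposure of the cells lasted 24 h. Total RNA gave 4 libraries a group, in 3 groups. No strain, age or sex was given in the labels. No group received EACA alone, and the labels state no vehicle for untreated cells, so plasminogen and EACA cannot be told apart against untreated cells. Nothing in the labels says that libraries sharing a group are from different animals or cultures, so p-values measure only the spread between these libraries, which may be technical. In total RNA from a whole culture, fewer cells of a type and less RNA per cell cannot be told apart.

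Lysosomes are acidic organelles in which macrophages break down what they engulf. The vacuolar ATPase (V-ATPase) acidifies them: its V1 sector hydrolyses ATP in the cytosol and turns a rotor that drives protons through the membrane-bound V0 sector. TFEB and TFE3 are related transcription factors that move to the nucleus when the kinase mTORC1 is inactive and bind CACGTG-containing sites in promoters of many lysosomal genes. Their activity is set largely by phosphorylation and location, which RNA levels do not show.

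Depth, recovered from the steps of the deposited values, lay between 12940888 and 22677041 counted reads per library. Values are FPKM, scaled to gene length and to the counted reads of the library, so levels can be compared between genes per length. The 45 members together took 2.06% ± 0.0631 of counted reads after PLG+EACA, 2.2% ± 0.096 after PLG+EACA+RNase and 2.42% ± 0.0579 in untreated cells (mean ± SD, n = 4). Psap made up 47.7%, 49.8% and 47.7% of these member reads in the same groups. All 10 macrophage markers reached an FPKM of 1 in at least 1 library, while the 10 lymphocyte markers stayed under 1 in every library. On both scales, as defined below, 3 macrophage markers were higher and 3 lower after PLG+EACA, and 1 was higher and 2 lower after PLG+EACA+RNase. The receptor gene Csf1r averaged 187 after PLG+EACA, 186 after PLG+EACA+RNase and 324 in untreated cells. The macrophage marker Mertk went the other way, averaging 13.9 after PLG+EACA, 9.2 after PLG+EACA+RNase and 5.97 in untreated cells. Of 12 dendritic cell markers 7 were tested, and on both scales 2 were higher and 2 lower with each preparation. Of all genes tested, 14.9% were higher and 26.4% lower after PLG+EACA, and 16.0% and 26.4% after PLG+EACA+RNase. The summed FPKM of the 12 ran from 439 to 574 after PLG+EACA, 536 to 589 after PLG+EACA+RNase and 608 to 659 in untreated cells, most of it Itgax. Of 10 neutrophil markers 5 were tested, summing to 26.1 to 70.3, 24.9 to 60.4 and 14.2 to 58.2 in the same groups. The markers of mast, erythroid and megakaryocyte cells summed to 159 to 217, 172 to 247 and 271 to 429, most of it Pf4. The noncoding RNA Gm26917 took 12.4% ± 1.42 of counted reads after PLG+EACA, 13.9% ± 0.923 after PLG+EACA+RNase and 11% ± 0.732 in untreated cells. Mitochondrial mRNAs took 0.559%, 0.436% and 0.671% of reads in these groups. The part of these shifts in the results below was not tested.

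Lysosomal genes were among the most abundant transcripts of these cells. In untreated cells 14 of the 45 members averaged over 100 FPKM, 24 lay between 10 and 100, and 7 lay under 10. Of the members, 25 were in the top 10% of the genes tested. Psap ranked 4 among all genes tested by its untreated mean, and the lowest tested members were Galc and Arsb.

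Each preparation was set against untreated cells to ask what it did to these transcripts. On the deposited scale the median of all 11165 genes tested was itself -0.26 (log2) after PLG+EACA and -0.20 after PLG+EACA+RNase. A second analysis therefore scaled the libraries by the median of ratios, which brings that median to about 0. Here a gene rose or fell against untreated cells only where limma with Benjamini-Hochberg adjustment called it in the same direction on both scales. By this rule 12 of the 44 tested members fell after PLG+EACA, where 26.4% of all genes tested did, and 3 rose, where 14.9% did. After PLG+EACA+RNase 9 of 44 fell, against 26.4% of all genes tested, and 3 rose, against 16.0%. The share of members that fell after PLG+EACA was therefore near the background. On the deposited scale alone, 30 of 44 were lower and 3 higher after PLG+EACA (53.4% and 14.9% of all genes tested, 68.3% in all), and 27 were lower and 3 higher after PLG+EACA+RNase (48.4% and 16.0%, 64.4% in all). The libraries did not overlap for 30 members in the lower and 4 in the higher direction after PLG+EACA, against 50.9% and 13.8% of all genes tested, and for 25 and 3 after PLG+EACA+RNase, against 46.7% and 15.0%. After scaling alone, 11 members were higher and 12 lower after PLG+EACA (27.3% and 26.4% of all genes tested), and 9 were higher and 9 lower after PLG+EACA+RNase (28.4% and 26.4%).

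The median log2 fold change of the tested members was -0.31 after PLG+EACA and -0.21 after PLG+EACA+RNase (-0.053 and -0.0045 from the median of all genes). The members did not all move the same way. Fallen with both preparations were Tfeb, Tfe3, Atp6v0a1, Atp6v1b2, Gusb, Galc, Smpd1 and Acp2. Npc1, Atp6v0d2, Gla and Acp5 fell after PLG+EACA and did not pass on both scales after PLG+EACA+RNase, while Asah1 passed after PLG+EACA+RNase and not after PLG+EACA. Atp6v1d and Atp6v1h rose with both preparations, Npc2 after PLG+EACA, and Atp6v1a after PLG+EACA+RNase. No call against untreated cells was made on both scales for the other 27 members. Both comparisons used the same untreated libraries, so their values are set side by side and are not independent. The plot of fold changes against untreated cells shows each member beside the median of all genes.

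**Figure D1:**
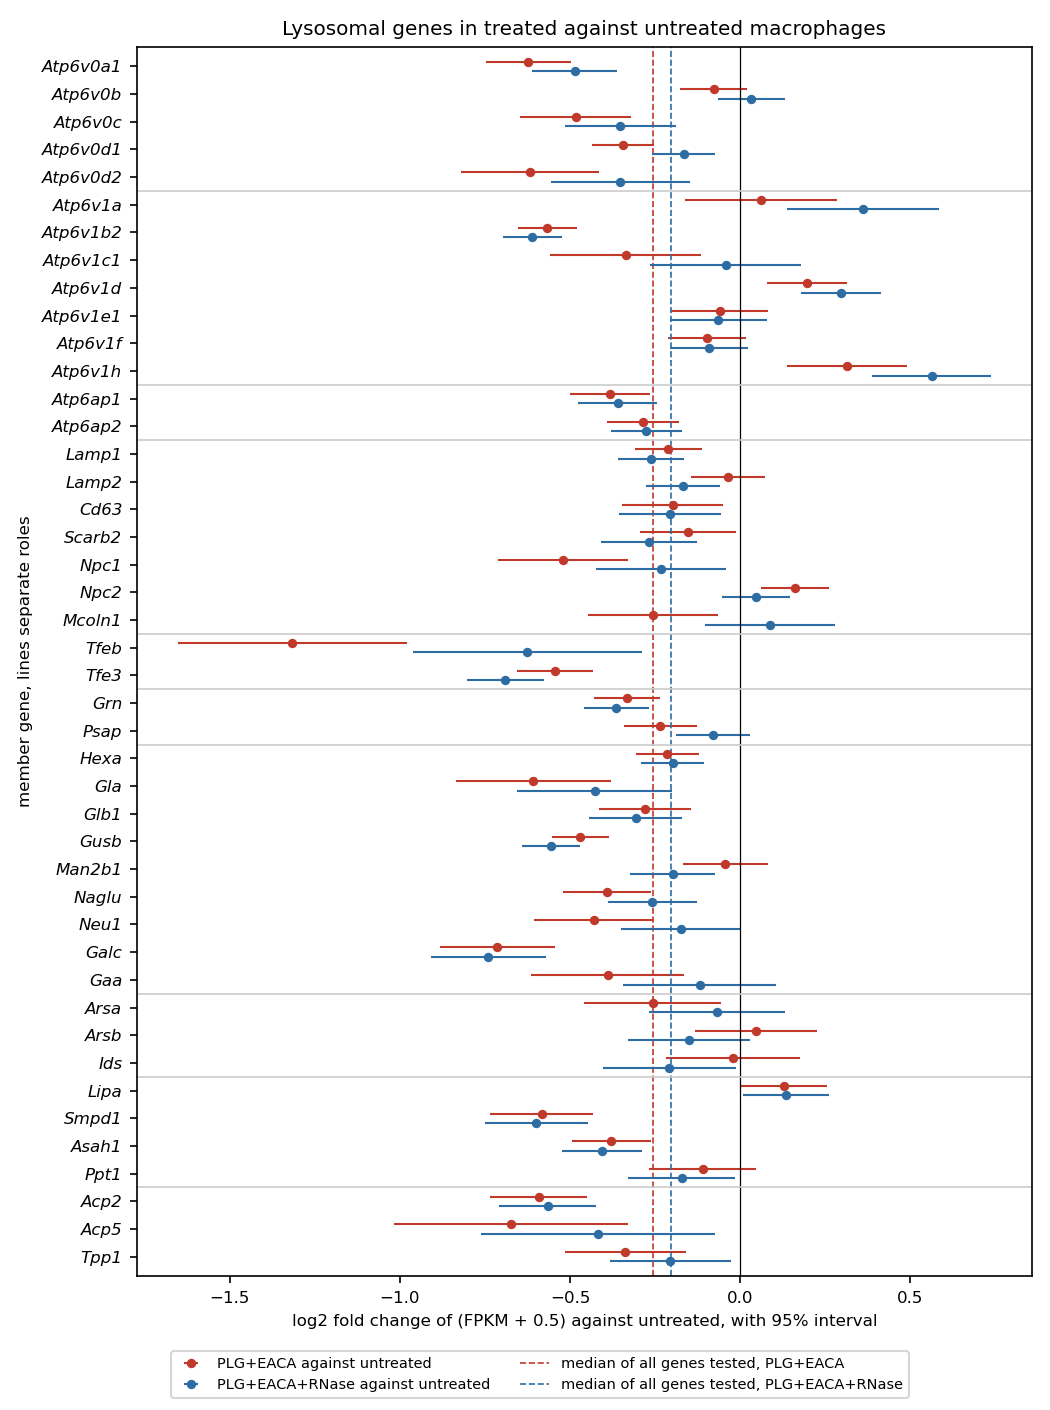
Log2 fold change of FPKM + 0.5 for the 44 tested members, PLG+EACA (red) and PLG+EACA+RNase (blue) against untreated, grouped by role. Points are limma estimates, bars 95% intervals, and dashed lines the medians of all genes tested (-0.26 and -0.20). Tfeb after PLG+EACA lies farthest to the left at -1.32, and Atp6v1h after PLG+EACA+RNase farthest to the right at 0.56.

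The transcription factor Tfeb (chr17:47737030-47792419; all coordinates are on GRCm38) had the largest decrease of any tested member after PLG+EACA; after PLG+EACA+RNase the estimates of Galc (-0.74) and Tfe3 (-0.69) lay below that of Tfeb (-0.63). Its FPKM in replicates 1 to 4 was 3.08, 3.998, 3.5 and 2.23 after PLG+EACA, 5.64, 6.46, 5.86 and 3.9 after PLG+EACA+RNase, and 8.21, 8.72, 8.54 and 8.82 in untreated cells. Every treated library lay below every untreated library, and the PLG+EACA+RNase libraries lay above those after PLG+EACA except that PLG+EACA+RNase replicate 4 was just under PLG+EACA replicate 2. Tfeb fell 2.49-fold after PLG+EACA (log2 fold change -1.32 ± 0.15 SE, limma adjusted p = 1.54e-05) and 1.54-fold after PLG+EACA+RNase (-0.63 ± 0.15, adjusted p = 0.00366). After scaling, the decreases were 2.09-fold and 1.33-fold (adjusted p = 6.67e-05 and 0.031 in limma). The difference between the preparations themselves was 0.69 ± 0.15 (log2, PLG+EACA+RNase over PLG+EACA), with an adjusted p of 0.0127 in limma. This was the largest difference between the preparations among the members, and in a fit of only these 8 libraries its limma adjusted p was 0.0537. The gene's reads ran from 222 to 1012 per library.

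Tfe3 (chrX:7762560-7775202), the related factor that can act on the same sites, also fell with both preparations. Its FPKM in replicates 1 to 4 was 12.04, 12.3, 11.4 and 11.98 after PLG+EACA, 10.9, 10.2, 10.2 and 11.7 after PLG+EACA+RNase, and 17.6, 16.9, 18.02 and 18.1 in untreated cells. All treated libraries lay below all untreated ones, and the groups of the 2 preparations overlapped in 1 library, PLG+EACA+RNase replicate 4. Tfe3 fell 1.46-fold after PLG+EACA (log2 fold change -0.54 ± 0.052 SE, limma adjusted p = 3.06e-06) and 1.61-fold after PLG+EACA+RNase (-0.69 ± 0.052, adjusted p = 6.69e-07). Between the preparations the log2 difference was -0.15, with a 95% interval of -0.26 to -0.033 and a limma adjusted p of 0.0632, or 0.0401 after scaling. Tfeb was thus called higher after PLG+EACA+RNase than after PLG+EACA, and Tfe3 was not.

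**Figure D2:**
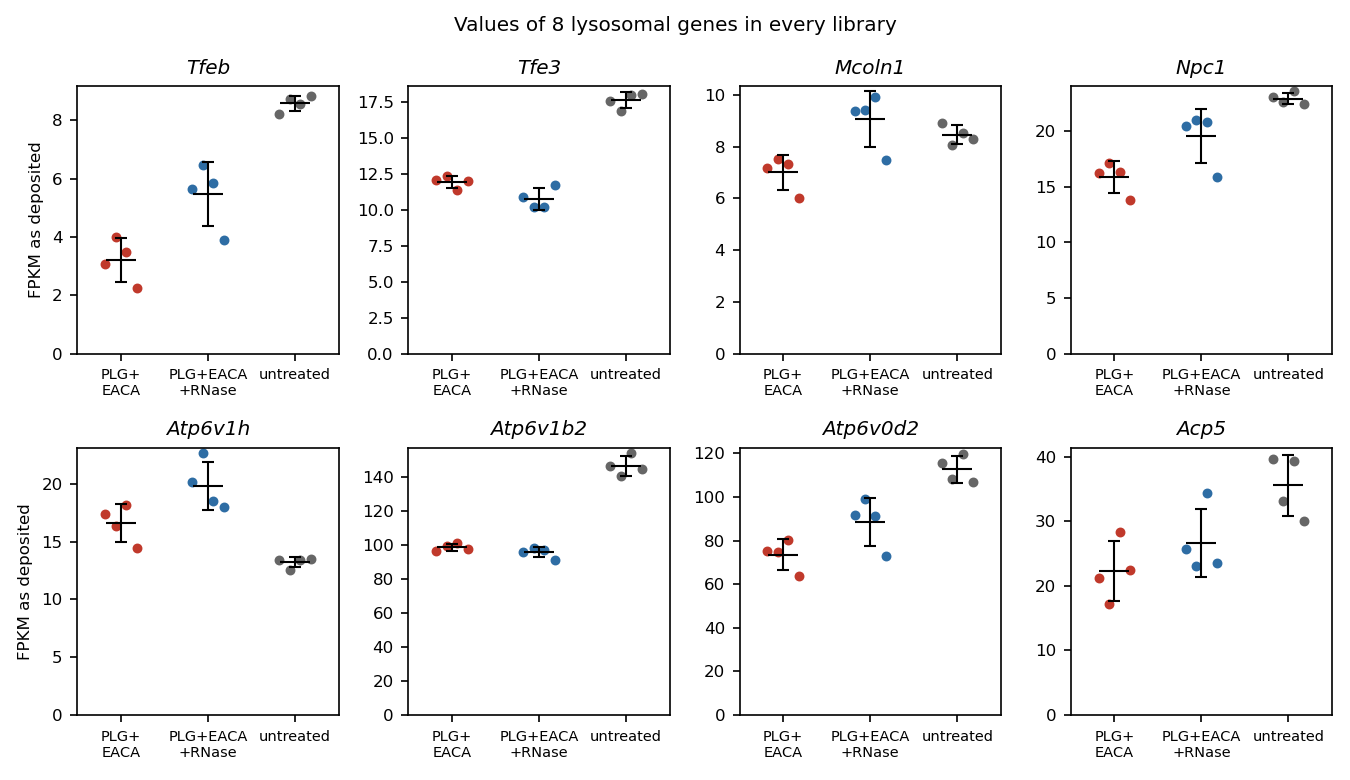
FPKM (y axis, from 0) of 8 members in every library, PLG+EACA in red, PLG+EACA+RNase in blue and untreated in grey; points are replicates 1 to 4 from left to right, and bars give the mean ± SD (n = 4). Tfeb and Tfe3 are below untreated in all 8 treated libraries, Atp6v1h is above it in all 8, and PLG+EACA+RNase replicate 4 is the lowest blue point for Tfeb, Mcoln1, Npc1, Atp6v1h, Atp6v1b2 and Atp6v0d2.

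Promoter sequences show where the letters bound by these factors stand around the starts of the members. The RefSeq promoter table for GRCm38.p6, which gives 250 bases before to 50 bases after each gene's start, held 39 of the 45 members, with 47 promoters. Both strands were searched for CACGTG, for TCACGTGA, which contains it, and for the same letters with a further G before and C after; all 3 motifs read the same on either strand. CACGTG stood in a promoter of 11 members: Atp6v0b, Atp6v0d1, Atp6v1a, Lamp1, Mcoln1, Glb1, Naglu, Gaa, Gla, Sgsh and Arsa. Counted by promoter, 11 of the 47 held it, beside 7.15% of all 32851 promoters and 10.5% of the promoters of tested genes. TCACGTGA stood in 4 members, Mcoln1, Atp6v0d1, Atp6v1a and Gla. By promoter this was 4 of the 47, against 0.974% of all promoters and 1.998% of those of tested genes. The extended form was in no matched member's window, against 0.326% of all promoters. No CACGTG was found in the windows of Tfeb and Tfe3 themselves. The 4 promoters with the 8-letter match are printed whole. The match is in capitals, and each is read 5′ to 3′ on the gene's strand.
Mcoln1 (chr8:3500269-3500568, plus strand): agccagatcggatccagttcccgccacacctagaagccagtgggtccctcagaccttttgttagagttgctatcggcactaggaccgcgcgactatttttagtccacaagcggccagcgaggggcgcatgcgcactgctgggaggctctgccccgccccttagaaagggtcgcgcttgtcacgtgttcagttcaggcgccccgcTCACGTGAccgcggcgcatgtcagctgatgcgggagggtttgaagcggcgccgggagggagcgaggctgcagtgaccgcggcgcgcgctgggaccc
Atp6v0d1 (chr8:105566015-105566314, minus strand): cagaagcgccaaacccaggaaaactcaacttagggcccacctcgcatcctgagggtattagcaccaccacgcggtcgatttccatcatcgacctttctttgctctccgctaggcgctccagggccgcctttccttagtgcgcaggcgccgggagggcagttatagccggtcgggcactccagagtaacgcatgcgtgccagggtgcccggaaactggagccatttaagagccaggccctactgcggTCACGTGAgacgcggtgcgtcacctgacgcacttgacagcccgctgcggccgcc
Atp6v1a (chr16:44139210-44139509, minus strand): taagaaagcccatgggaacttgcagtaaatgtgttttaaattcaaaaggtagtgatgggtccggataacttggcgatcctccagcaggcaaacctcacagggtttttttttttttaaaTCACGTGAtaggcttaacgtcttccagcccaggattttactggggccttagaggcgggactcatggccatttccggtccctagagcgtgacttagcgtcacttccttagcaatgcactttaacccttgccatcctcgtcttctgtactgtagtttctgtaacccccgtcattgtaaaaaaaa
Gla (chrX:134600956-134601255, minus strand): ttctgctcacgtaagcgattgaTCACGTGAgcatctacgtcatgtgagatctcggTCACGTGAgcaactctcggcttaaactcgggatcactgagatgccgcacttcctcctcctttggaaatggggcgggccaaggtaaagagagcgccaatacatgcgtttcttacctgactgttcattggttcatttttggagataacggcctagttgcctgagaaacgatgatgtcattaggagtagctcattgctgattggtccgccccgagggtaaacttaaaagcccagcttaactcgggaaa
The match begins 46 bases before the RefSeq start in Mcoln1, 4 before it in Atp6v0d1 and 132 before it in Atp6v1a, and Gla has matches 228 and 195 bases before its start. By the deposited gene coordinates, the matches of Mcoln1 (gene at chr8:3500457-3515232) and Atp6v1a (gene at chr16:44085402-44139705) lie inside the gene. A match of letters is a description and not evidence of binding. Calls on both scales differed among the 4 genes. Mcoln1 and Atp6v0d1 were called higher after PLG+EACA+RNase than after PLG+EACA. Atp6v1a rose against untreated cells after PLG+EACA+RNase, and Gla fell after PLG+EACA. In estimate, all 4 were higher after PLG+EACA+RNase than after PLG+EACA, by 1.27-fold, 1.13-fold, 1.23-fold and 1.13-fold in the printed order. Atp6v1a and Gla did not pass in that comparison, where the median of all genes tested was 0.039 (log2). Of the other tested members with CACGTG, Atp6v0b, Naglu, Gaa and Arsa were also higher in estimate, and Lamp1 and Glb1 were lower. A part of the motif in these differences was not tested.

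Of the V0 sector, the membrane ring that carries the protons, 2 of 5 genes fell after PLG+EACA and 1 after PLG+EACA+RNase (26.4% of all genes tested in each), and none rose. Counts by role are over few genes and are read against these shares and the 14.9% and 16.0% that rose. Atp6v0a1 (chr11:101009452-101063719), the a subunit whose channels let protons reach the ring, had 50.5, 47.1, 49.7 and 46.02 after PLG+EACA, 53.1, 53.7, 58.2 and 47.9 after PLG+EACA+RNase, and 73.4, 75.2, 77.2 and 72.6 in untreated cells. The treated libraries of both preparations lay below all untreated ones. Its log2 fold change was -0.62 ± 0.057 (SE) after PLG+EACA and -0.49 ± 0.057 after PLG+EACA+RNase (limma adjusted p = 2.37e-06 and 1.6e-05). Atp6v0d2 (chr4:19876841-19922605), an isoform of the d subunit known from osteoclasts and macrophages, had 75.1, 74.8, 80.5 and 63.6 after PLG+EACA, 91.6, 98.9, 91.4 and 72.8 after PLG+EACA+RNase, and 115, 109, 119.9 and 107 in untreated cells. Every treated library was below every untreated one, and PLG+EACA+RNase replicate 4 fell among the PLG+EACA libraries. It fell 1.53-fold after PLG+EACA (limma adjusted p = 0.000105). After PLG+EACA+RNase the log2 fold change was -0.35 (adjusted p = 0.0056 in limma), which did not pass after scaling (-0.12, adjusted p = 0.22).

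Atp6v0d1 (chr8:105524465-105566047), the broadly used d subunit that couples the ring to the V1 rotor, had 118, 123, 128 and 122 after PLG+EACA, 144, 137, 142 and 132 after PLG+EACA+RNase, and 158, 153, 160.5 and 152 in untreated cells. The 3 groups stood apart with no overlap, and the PLG+EACA+RNase group was in the middle. It was higher after PLG+EACA+RNase than after PLG+EACA by 0.18 ± 0.042 (log2, SE; limma adjusted p = 0.0157, and 0.0462 after scaling). Against untreated cells its log2 values of -0.34 and -0.17 passed on the deposited scale only. The proton-binding ring subunits had no call on both scales against untreated cells: Atp6v0b averaged 126 ± 7.52 after PLG+EACA, 135 ± 2.9 after PLG+EACA+RNase and 132 ± 3.13 in untreated cells, and Atp6v0c 68.2 ± 6.3 after PLG+EACA, 74.7 ± 5.08 after PLG+EACA+RNase and 95.5 ± 7.05 in untreated cells (FPKM, SD, n = 4). Reads of Atp6v0c can be shared with the pseudogenes Atp6v0c-ps2 (mean FPKM 6.57) and Atp6v0c-ps1 (0.431), so its value is uncertain.

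The V1 sector, which binds and splits ATP, had genes called in both directions. After PLG+EACA 2 of its 7 genes rose and 1 fell (14.9% and 26.4% of all genes tested), and after PLG+EACA+RNase 3 rose and 1 fell (16.0% and 26.4%). Atp6v1h (chr1:5070018-5162529), the regulatory H subunit that joins V1 to V0, had 17.4, 16.4, 18.2 and 14.4 after PLG+EACA, 20.2, 22.6, 18.5 and 17.99 after PLG+EACA+RNase, and 13.4, 12.5, 13.4 and 13.5 in untreated cells. All 8 treated libraries lay above all 4 untreated ones. It rose 1.24-fold after PLG+EACA and 1.48-fold after PLG+EACA+RNase (log2 fold changes 0.31 ± 0.08 and 0.56 ± 0.08 SE, limma adjusted p = 0.00422 and 7.5e-05). Atp6v1d (chr12:78840725-78861638), the D subunit of the central rotor shaft, had 23.9, 22.3, 25.3 and 23.5 after PLG+EACA, 24.7, 26.3, 24.7 and 26.1 after PLG+EACA+RNase, and 20.3, 19.02, 21.9 and 21.5 in untreated cells. No treated library reached down to an untreated one. Its log2 fold change was 0.20 ± 0.054 after PLG+EACA and 0.30 ± 0.054 after PLG+EACA+RNase (limma adjusted p = 0.00621 and 0.000462).

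Atp6v1b2 (chr8:69088646-69113711), the B subunit that forms the ATP-binding head together with subunit A, went the opposite way. Its FPKM was 96.4, 99.4, 101 and 97.5 after PLG+EACA, 95.98, 98.04, 97.03 and 91.3 after PLG+EACA+RNase, and 146, 140.5, 154 and 144 in untreated cells. All untreated libraries lay well above the highest treated one, and the 2 preparations overlapped. It fell 1.48-fold after PLG+EACA and 1.53-fold after PLG+EACA+RNase (limma adjusted p = 4.14e-07 and 2.93e-07). Its partner Atp6v1a, the catalytic A subunit, averaged 79.2 ± 8.77 after PLG+EACA, 97.95 ± 14.2 after PLG+EACA+RNase and 75.6 ± 2.7 in untreated cells (FPKM, SD, n = 4). Atp6v1a rose after PLG+EACA+RNase (log2 fold change 0.36 ± 0.10 SE, limma adjusted p = 0.00832); after PLG+EACA it was 0.062 (adjusted p = 0.611 in limma). Between the preparations it differed by 0.30 (limma adjusted p = 0.0573). The stator subunit Atp6v1c1 averaged 27.8 ± 3.64 after PLG+EACA, 34.2 ± 4.21 after PLG+EACA+RNase and 35.01 ± 1.44 in untreated cells. The peripheral stalk subunit Atp6v1e1 and the rotor subunit Atp6v1f had log2 values of -0.06 and -0.097 after PLG+EACA, and -0.064 and -0.091 after PLG+EACA+RNase. None of these 3 was called on both scales in either comparison with untreated cells.

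The accessory subunits Atp6ap1 and Atp6ap2, needed for assembly of the pump, lay near the median of all genes. Atp6ap1 (chrX:74297097-74304721) had 91.7, 92.7, 102 and 99.7 after PLG+EACA, 102, 95.8, 104 and 91.1 after PLG+EACA+RNase, and 128, 125, 131 and 120.0 in untreated cells. Atp6ap2 (chrX:12587801-12617049), also known as the prorenin receptor, had 102, 100.4, 106 and 103 after PLG+EACA, 102, 111, 105 and 96.1 after PLG+EACA+RNase, and 124, 123, 133 and 121 in untreated cells. Treated libraries of both genes lay below the untreated ones. Log2 values were -0.38 and -0.29 after PLG+EACA, and -0.36 and -0.28 after PLG+EACA+RNase, which limma called on the deposited scale but not after scaling.

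Of the 7 lysosomal membrane and cholesterol transfer genes, Npc1 fell and Npc2 rose after PLG+EACA, beside 26.4% and 14.9% of all genes tested, and none was called on both scales after PLG+EACA+RNase. On the deposited scale alone, 4 of the 7 were lower and 1 higher after PLG+EACA, where 53.4% and 14.9% of all genes tested were. After PLG+EACA+RNase 5 were lower and 0 higher on that scale, where 48.4% and 16.0% of all genes tested were. Npc1 (chr18:12189692-12236400), the membrane transporter that exports cholesterol, had 16.2, 17.1, 16.4 and 13.9 after PLG+EACA, 20.5, 21.1, 20.8 and 15.9 after PLG+EACA+RNase, and 23.04, 22.7, 23.6 and 22.4 in untreated cells. The PLG+EACA libraries lay below all untreated ones, as did the PLG+EACA+RNase libraries, whose replicate 4 fell among those after PLG+EACA. Npc1 fell 1.43-fold after PLG+EACA (log2 -0.52 ± 0.088 SE, limma adjusted p = 0.000237), against -0.23 after PLG+EACA+RNase (adjusted p = 0.0349 in limma, 0.973 after scaling). An opposite-strand gene, Rmc1, overlaps 4.52% of the exon bases of Npc1, and the strand setting of the authors' counting is not given in the sources used here. Npc2, the soluble protein that hands cholesterol to the transporter, averaged 126 ± 2.43 after PLG+EACA, 116 ± 5.15 after PLG+EACA+RNase and 113 ± 5.71 in untreated cells (FPKM, SD, n = 4). Npc2 rose 1.12-fold after PLG+EACA (limma adjusted p = 0.00756), so the 2 genes of this hand-over moved in opposite directions after PLG+EACA.

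Mcoln1 (chr8:3500457-3515232), the calcium channel of the lysosomal membrane, had 7.18, 7.54, 7.32 and 6.01 after PLG+EACA, 9.4, 9.42, 9.94 and 7.48 after PLG+EACA+RNase, and 8.93, 8.06, 8.52 and 8.31 in untreated cells. The PLG+EACA libraries lay below the untreated ones, while the PLG+EACA+RNase libraries spread around them, with 3 above every untreated library and replicate 4 below all of them. Mcoln1 was higher after PLG+EACA+RNase than after PLG+EACA by 0.35 ± 0.088 (log2, SE; limma adjusted p = 0.0203). Against untreated cells its log2 value was -0.26 after PLG+EACA, at the median of all genes, and 0.0035 after scaling. After PLG+EACA+RNase it was 0.088 as deposited (limma adjusted p = 0.399) and 0.31 after scaling, where it was called higher (limma adjusted p = 0.00396).

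The abundant membrane glycoprotein gene Lamp1 (chr8:13159161-13175338) had 286, 309, 280.2 and 292 after PLG+EACA, 293, 288, 280.1 and 264 after PLG+EACA+RNase, and 340.4, 332, 348 and 329.9 in untreated cells. Scarb2 (chr5:92441314-92506833), which carries the enzyme glucocerebrosidase to lysosomes, had 17.9, 17.03, 18.7 and 19.4 after PLG+EACA, 17.3, 16.4, 18.4 and 15.3 after PLG+EACA+RNase, and 21.7, 19.6, 20.9 and 19.2 in untreated cells. For Lamp1 the treated libraries lay below the untreated ones, while for Scarb2 the PLG+EACA libraries overlapped the untreated ones. Neither was called on both scales: Lamp1 was -0.21 and -0.26 (log2, PLG+EACA and PLG+EACA+RNase against untreated) and Scarb2 -0.15 and -0.27. Lamp2, which takes part in autophagosome fusion, averaged 51.7 ± 3.87 after PLG+EACA, 46.98 ± 0.756 after PLG+EACA+RNase and 52.8 ± 1.37 in untreated cells. The tetraspanin Cd63 averaged 210.3 ± 12.7 after PLG+EACA, 209.6 ± 21.1 after PLG+EACA+RNase and 241 ± 9.83 in untreated cells, and its reads can be shared with Cd63-ps (mean FPKM 5.17). Opposite-strand Grtp1, with a mean FPKM of 1.18, overlaps 9.31% of the exon bases of Lamp1.

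The precursors of the cofactors that hydrolases need include the most abundant RNA of the set, Psap. Against untreated cells, Psap lay 0.022 and Grn -0.077 (log2) from the median of all genes after PLG+EACA. After PLG+EACA+RNase they lay 0.12 and -0.16 from it. There Psap was called higher after scaling only (log2 0.15, limma adjusted p = 0.0286). Psap (chr10:60277627-60302597), which is cut into the saposins that present lipids to hydrolases, had 3499, 3867, 3463 and 3504 after PLG+EACA, 3988, 4125, 4106 and 3738 after PLG+EACA+RNase, and 4188, 4178, 4357 and 4126 in untreated cells. The untreated libraries lay above all treated ones, and PLG+EACA replicate 2 overlapped the PLG+EACA+RNase group. Psap was 0.16 (log2) higher after PLG+EACA+RNase than after PLG+EACA on the deposited scale (limma adjusted p = 0.0448), and the call ended after scaling (adjusted p = 0.156 in limma). Grn (chr11:102430315-102437048), the progranulin gene, had 253, 266, 244 and 273 after PLG+EACA, 253, 252, 261 and 247 after PLG+EACA+RNase, and 324, 325, 342 and 315 in untreated cells. All 8 treated libraries lay below the untreated ones, and the preparations overlapped. Its log2 values of -0.33 and -0.36 were not called after scaling.

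Among the glycosidases, which take sugars off glycolipids and glycans, 3 of 9 fell after PLG+EACA and 2 after PLG+EACA+RNase, near the 26.4% of all genes tested, and none rose. Gusb (chr5:129989011-130003049), the beta-glucuronidase of glycosaminoglycan breakdown, had 62.2, 63.2, 62.4 and 63.8 after PLG+EACA, 56.3, 59.1, 60.3 and 61.2 after PLG+EACA+RNase, and 86.6, 84.03, 91.1 and 87.4 in untreated cells. Untreated libraries lay far above the treated ones, and every PLG+EACA library lay above every PLG+EACA+RNase library. Gusb fell 1.38-fold after PLG+EACA and 1.47-fold after PLG+EACA+RNase (limma adjusted p = 1.18e-06 and 4.31e-07); between the preparations the log2 difference was -0.087 (95% interval -0.17 to -0.0022, limma adjusted p = 0.13). Galc (chr12:98202294-98259459), which splits galactosylceramide, was at a low level of 1.51, 1.74, 1.5 and 1.51 after PLG+EACA, 1.68, 1.59, 1.6 and 1.26 after PLG+EACA+RNase, and 2.96, 2.76, 2.93 and 2.88 in untreated cells. Treated libraries were all below untreated ones. Galc fell 1.64-fold after PLG+EACA and 1.67-fold after PLG+EACA+RNase (log2 -0.71 ± 0.078 and -0.74 ± 0.078 SE, limma adjusted p = 8.83e-06 and 7.51e-06).

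Gla, the alpha-galactosidase whose loss causes Fabry disease, fell 1.52-fold after PLG+EACA (limma adjusted p = 0.000268), and averaged 31.4 ± 3.71 after PLG+EACA, 35.7 ± 4.61 after PLG+EACA+RNase and 47.9 ± 4.09 in untreated cells (FPKM, SD, n = 4). Naglu (chr11:101070012-101077672), an enzyme of heparan sulfate breakdown, had 29.9, 28.9, 30.5 and 29.2 after PLG+EACA, 34.2, 31.8, 35.7 and 28.97 after PLG+EACA+RNase, and 39.6, 38.99, 40.6 and 36.98 in untreated cells. Treated libraries of Naglu lay below the untreated ones, but neither log2 value, -0.39 after PLG+EACA and -0.26 after PLG+EACA+RNase, was called after scaling. Neu1, the lysosomal sialidase, averaged 18.3 ± 1.81 after PLG+EACA, 21.96 ± 2.24 after PLG+EACA+RNase and 24.8 ± 1.06 in untreated cells. Gaa, which breaks down glycogen, averaged 22.6 ± 2.09 after PLG+EACA, 27.5 ± 4.54 after PLG+EACA+RNase and 29.7 ± 1.53 in untreated cells. Hexa, a subunit of the beta-hexosaminidase that degrades gangliosides, averaged 223 ± 8.03 after PLG+EACA, 226 ± 9.66 after PLG+EACA+RNase and 259 ± 6.06 in untreated cells, Glb1, the beta-galactosidase, 24.7 ± 1.84 after PLG+EACA, 24.2 ± 1.35 after PLG+EACA+RNase and 30.05 ± 1.67 in untreated cells, and Man2b1, the alpha-mannosidase, 67.8 ± 5.79 after PLG+EACA, 60.7 ± 2.43 after PLG+EACA+RNase and 69.7 ± 1.47 in untreated cells. None of these 5 was called on both scales against untreated cells. Opposite-strand Tmem202 overlaps 12.8% of the exon bases of Hexa, and Glb1 shares 5.49% of its exon bases with Tmppe on the same strand.

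The sulfatases had no member that rose or fell against untreated cells on both scales. Arsa (chr15:89472476-89477425), which acts on sulfatide, had 10.4, 11.3, 11.5 and 8.39 after PLG+EACA, 12.7, 11.4, 12.8 and 10.6 after PLG+EACA+RNase, and 11.9, 12.02, 12.9 and 12.9 in untreated cells. Arsb (chr13:93771630-93943016), which acts on dermatan sulfate, had 2.22, 2.26, 1.82 and 2.28 after PLG+EACA, 1.96, 1.73, 1.59 and 1.95 after PLG+EACA+RNase, and 2.1, 2.05, 2.17 and 1.9 in untreated cells. Ids (chrX:70343069-70365084), which removes sulfate from heparan and dermatan sulfate, had 6.82, 7.5, 7.64 and 9.68 after PLG+EACA, 6.85, 6.31, 6.67 and 7.55 after PLG+EACA+RNase, and 8.34, 8.21, 7.84 and 7.49 in untreated cells. The PLG+EACA libraries of Arsa lay below the untreated ones, and all other groups of these 3 genes overlapped. Log2 values after PLG+EACA were -0.26, 0.047 and -0.02 in that order, and after PLG+EACA+RNase -0.067, -0.15 and -0.21. Opposite-strand genes overlap the exon bases of Arsa by 18.8% (C230037L18Rik, mean FPKM 0.294) and of Arsb by 7.67% (Gm47210, mean FPKM 0.00375) and by 32.3% (a gene not analysed here), so these values carry that uncertainty. Sgsh, the heparan N-sulfatase, was below an FPKM of 1 in every library and had 14 to 50 reads, so it was not tested in the main fit. With no filter Sgsh was not called, with limma adjusted p = 0.117 after PLG+EACA, 0.484 after PLG+EACA+RNase and 0.473 between the preparations. It averaged 0.314 ± 0.128 after PLG+EACA, 0.444 ± 0.179 after PLG+EACA+RNase and 0.543 ± 0.05 in untreated cells (FPKM, SD, n = 4).

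Of the 4 lipid and lipoprotein hydrolases, Smpd1 fell with both preparations and Asah1 after PLG+EACA+RNase. Smpd1 (chr7:105554360-105558389), the acid sphingomyelinase that makes ceramide, had 4.27, 4.04, 4.25 and 4.57 after PLG+EACA, 4.03, 4.05, 4.98 and 3.92 after PLG+EACA+RNase, and 6.78, 6.35, 6.97 and 6.55 in untreated cells. Treated libraries were all below untreated ones. Smpd1 fell 1.5-fold after PLG+EACA and 1.51-fold after PLG+EACA+RNase (limma adjusted p = 1.67e-05 and 1.51e-05). Asah1 (chr8:41340197-41374773), the acid ceramidase that acts on that product, had 35.4, 35.95, 33.8 and 37.1 after PLG+EACA, 36.6, 35.4, 35.8 and 31.8 after PLG+EACA+RNase, and 46.1, 44.2, 49.5 and 45.8 in untreated cells. No treated library reached an untreated one. Its log2 value was -0.38 after PLG+EACA (limma adjusted p = 0.15 after scaling) and -0.41 after PLG+EACA+RNase (adjusted p = 0.022 in limma after scaling), and the preparations differed by -0.028 (95% interval -0.14 to 0.089).

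Ppt1 (chr4:122836242-122859175), which removes palmitate from proteins, had 14.5, 15.003, 13.5 and 15.6 after PLG+EACA, 13.4, 15.3, 14.7 and 12.8 after PLG+EACA+RNase, and 15.9, 15.2, 17.7 and 14.7 in untreated cells. These groups overlapped, and Ppt1 was called in neither comparison with untreated cells on the deposited scale. An opposite-strand gene with a mean FPKM of 195, Cap1, overlaps 3.51% of its exon bases. Lipa, which releases cholesterol from the esters of engulfed lipoproteins, averaged 122 ± 8.72 after PLG+EACA, 123 ± 7.91 after PLG+EACA+RNase and 112 ± 3.39 in untreated cells (FPKM, SD, n = 4). Its log2 values of 0.13 after PLG+EACA and 0.13 after PLG+EACA+RNase missed the threshold on the deposited scale (limma adjusted p = 0.067 and 0.0597) and were called higher after scaling.

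Both phosphatases fell after PLG+EACA. Acp2 (chr2:91202885-91214098), the lysosomal acid phosphatase, had 10.3, 10.6, 10.1 and 10.4 after PLG+EACA, 11.05, 9.91, 11.9 and 9.58 after PLG+EACA+RNase, and 17.02, 15.1, 16.2 and 15.3 in untreated cells. All treated libraries were below all untreated ones. Acp2 fell 1.51-fold after PLG+EACA and 1.48-fold after PLG+EACA+RNase (limma adjusted p = 9.61e-06 and 1.48e-05). Acp5 (chr9:22126727-22135711), the tartrate-resistant phosphatase used as an osteoclast and macrophage marker, had 21.2, 17.2, 28.4 and 22.5 after PLG+EACA, 25.8, 23.1, 34.4 and 23.5 after PLG+EACA+RNase, and 39.7, 33.1, 39.3 and 30.1 in untreated cells. Replicates varied more than in most members, and PLG+EACA+RNase replicate 3 overlapped the untreated group. Acp5 fell 1.59-fold after PLG+EACA (log2 -0.67 ± 0.16 SE, limma adjusted p = 0.00243, 0.0461 after scaling), and was -0.42 after PLG+EACA+RNase (limma adjusted p = 0.33 after scaling). The summed FPKM of 10 osteoclast markers ranged from 112.6 to 152 after PLG+EACA, 126 to 148 after PLG+EACA+RNase and 152.5 to 161 in untreated cells. The osteoclast genes Calcr, Slc9b2 and Oscar were under 0.1 in every library, and Ctsk averaged 20.8 after PLG+EACA, 28.3 after PLG+EACA+RNase and 48.3 in untreated cells. Without Ctsk the sum averaged 114 ± 16.3 after PLG+EACA, 108 ± 12.8 after PLG+EACA+RNase and 109 ± 3.89 in untreated cells (SD, n = 4). Of the 7 markers tested, Ctsk and Mmp9 were lower on both scales with each preparation, none was higher after PLG+EACA, and Itgb3 and Ocstamp were higher after PLG+EACA+RNase. The part of such cells in the decreases was not tested. Tpp1 (chr7:105744811-105752235), a tripeptidyl peptidase, had 31.5, 33.6, 34.9 and 33.98 after PLG+EACA, 38.5, 34.3, 42.8 and 32.1 after PLG+EACA+RNase, and 43.7, 41.2, 45.9 and 39.3 in untreated cells. Its PLG+EACA libraries lay below the untreated ones, and its log2 values of -0.34 after PLG+EACA and -0.21 after PLG+EACA+RNase were not called after scaling.

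The comparison between PLG+EACA+RNase and PLG+EACA asks what differed with RNase exposure of the preparation, with EACA in both. No group received RNases without plasminogen, so RNases acting on the cells cannot be told apart from a changed preparation. The median of all genes was 0.04 (log2) here, so the scale mattered less. On both scales 6 of 44 members were higher after PLG+EACA+RNase than after PLG+EACA, where 10.4% of all genes tested were, and none was lower, where 8.68% were. The 6 were Tfeb, Mcoln1, Npc1, Neu1, Atp6v1h and Atp6v0d1, and Psap joined them on the deposited scale alone, where 12.1% of all genes tested were higher and 8.73% lower. With limma on the deposited scale no member was lower at an adjusted p under 0.05, 6 were lower at an unadjusted p under 0.05, and limma voom on recovered reads also called 0. After scaling, Tfe3 and Npc2 were lower (limma adjusted p = 0.0401 and 0.0464). Differences were small apart from Tfeb (1.61-fold) and Mcoln1 (1.27-fold): Npc1 differed 1.22-fold, Neu1 1.19-fold, Atp6v1h 1.19-fold and Atp6v0d1 1.13-fold (limma adjusted p = 0.0377, 0.0422, 0.0467 and 0.0157).

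For 4 of these 6 genes, Tfeb, Npc1, Neu1 and Atp6v0d1, the mean after PLG+EACA+RNase lay between the means after PLG+EACA and in untreated cells. For Mcoln1 and Atp6v1h it lay above both. Atp6v0d1 alone of the 6 had libraries that did not overlap between the preparations, while 10.4% of all genes tested did not overlap in the higher direction. Lamp2, Npc2 and Gusb did not overlap in the lower direction, where 7.68% of genes did not, and none of the 3 passed the adjusted threshold on the deposited scale.

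The number of members called between the preparations changed when single libraries were left out. So did the number over all genes tested: leaving out 1 library gave 569 to 1922 genes higher and 423 to 1306 lower. The member counts below are not set against all genes fit by fit. Whether they changed more than the calls over all genes was therefore not tested. PLG+EACA+RNase replicate 4 was the lowest of its group in 34 of the 44 tested members (77.3%), against 36.4% of all genes tested. Without it 14 members were higher and Tfe3 was lower. Members gained were Atp6v0a1, Atp6v0d2, Atp6v1a, Atp6v1c1, Gaa, Gla and Naglu. Without replicate 2 or 3 of the same group, 2 members remained called, Tfeb and Atp6v0d1, and 3 were called without PLG+EACA replicate 1 or 4, PLG+EACA+RNase replicate 1 or any 1 untreated library. Untreated libraries enter this comparison only through the shared spread: without 1 of them the log2 differences stayed the same, and Psap, Neu1, Npc1 and Atp6v1h had limma adjusted p-values of 0.0521 to 0.0659. With 1 PLG+EACA or PLG+EACA+RNase library left out, the log2 difference stayed positive for all 7, from 0.55 to 0.83 for Tfeb, 0.28 to 0.43 for Mcoln1, 0.23 to 0.38 for Npc1, 0.20 to 0.31 for Neu1, 0.19 to 0.29 for Atp6v1h, 0.16 to 0.20 for Atp6v0d1 and 0.14 to 0.19 for Psap. In a fit of only the 8 libraries of these groups, 0 of the 44 members passed in either direction, 11 were higher and 3 lower at an unadjusted p under 0.05, and Tfeb, Mcoln1 and Atp6v0d1 had limma adjusted p-values of 0.0537, 0.0692 and 0.0652. Over 22 alternatives, Tfeb was called higher in 21, Atp6v0d1 in 20, Mcoln1 in 19, Npc1 and Neu1 in 10, Atp6v1h in 9 and Psap in 8.

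**Figure D3:**
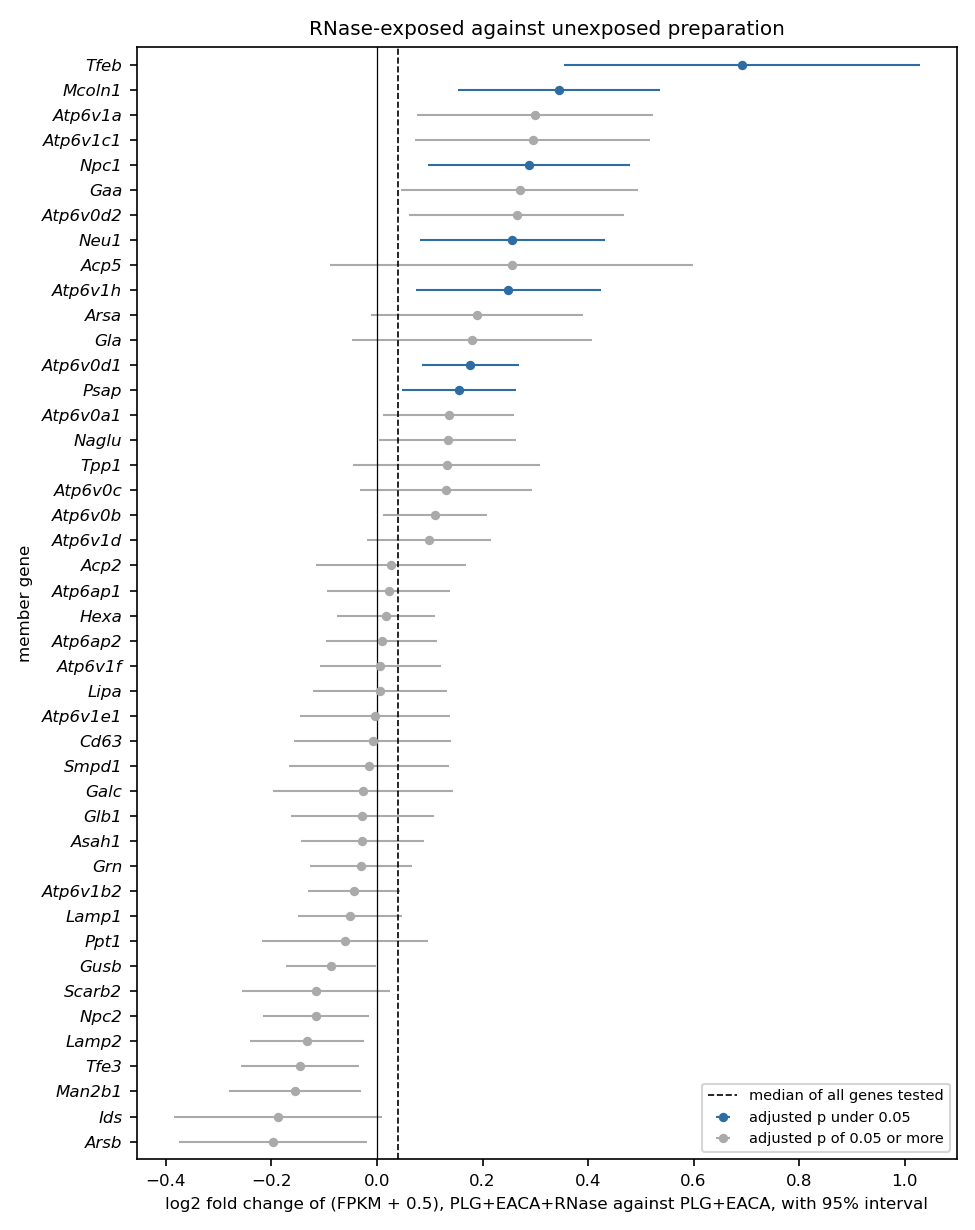
Log2 fold change of FPKM + 0.5 for the 44 tested members, PLG+EACA+RNase over PLG+EACA, sorted by size, with 95% intervals from limma on the deposited scale; blue marks an adjusted p under 0.05 and the dashed line the median of all genes tested (0.04). Tfeb (0.69) and Mcoln1 (0.35) lie farthest to the right, and no member to the left of 0 is blue.

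Without matching for level, members varied less between replicates than the typical gene, and 25 of the 45 were in the top 10% by untreated mean. A part of level in this difference was not tested. The median coefficient of variation of the members was 6.09% after PLG+EACA, 7.71% after PLG+EACA+RNase and 4.08% in untreated cells, against 10.5%, 9.89% and 5.84% over all genes tested. Untreated replicate 4 was the lowest of its group in 23 members (52.3%, against 28.3% of all genes tested), and PLG+EACA replicate 4 in 16 (36.4%, against 47.5%).

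**Figure D4:**
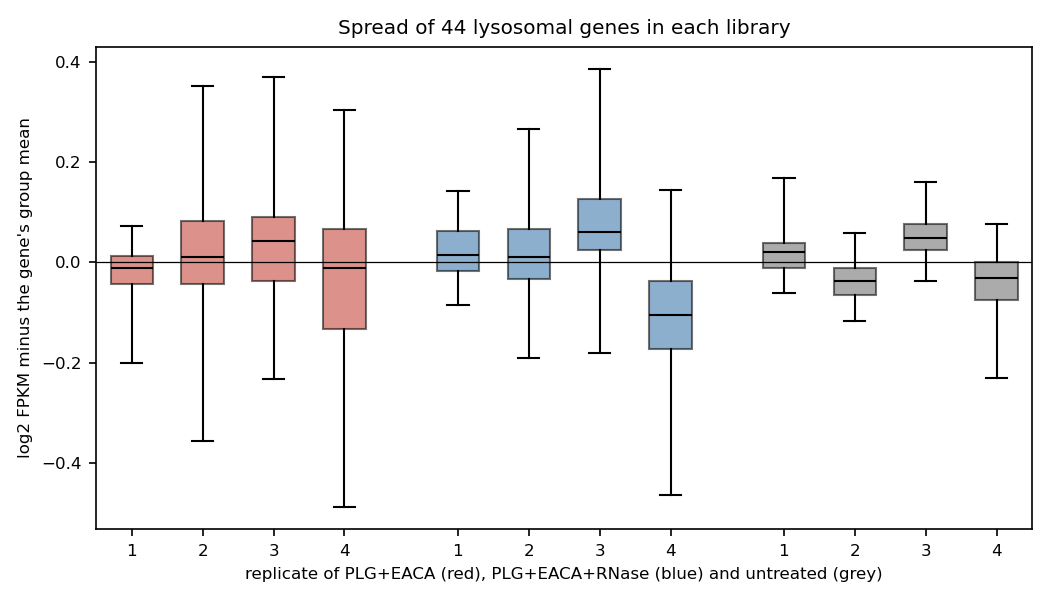
Log2 FPKM of the 44 tested members in each library minus the gene's group mean; boxes span the middle of the members with the median as a line, and whiskers reach the lowest and highest member. PLG+EACA+RNase replicate 4 sits below its group for most members, the lowest of the 4 in 34 of them.

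The rest of the lysosomal system was described with 7 further lists of genes, whose counts on both scales stand beside 14.9% of all genes tested that rose and 26.4% that fell after PLG+EACA, and 16.0% and 26.4% after PLG+EACA+RNase. Of 14 other tested pump subunits and assembly factors, 1 rose and 5 fell on both scales after PLG+EACA, and 2 rose and 2 fell after PLG+EACA+RNase. Ncoa7, which binds the V1 sector, rose, averaging 5.69 ± 0.269 after PLG+EACA, 5.67 ± 0.259 after PLG+EACA+RNase and 3.98 ± 0.22 in untreated cells (FPKM, SD, n = 4). Ccdc115, an assembly factor of the V0 sector, fell 2.004-fold after PLG+EACA and 1.91-fold after PLG+EACA+RNase (limma adjusted p = 1.63e-05 and 3.08e-05). Dmxl2, a rabconnectin that promotes pump assembly, fell 1.79-fold and 1.5-fold in the same order. Of 25 other tested hydrolases and activators, 7 fell and none rose after PLG+EACA, while 5 fell and 2 rose after PLG+EACA+RNase. The alpha-fucosidase Fuca1 averaged 36.8 ± 1.18 after PLG+EACA, 38.1 ± 1.13 after PLG+EACA+RNase and 55.5 ± 0.982 in untreated cells, the beta-mannosidase Manba 5.4 ± 0.377 after PLG+EACA, 5.46 ± 0.378 after PLG+EACA+RNase and 9.09 ± 0.509 in untreated cells, and the asparagine endopeptidase Lgmn 108 ± 3.79 after PLG+EACA, 109 ± 8.01 after PLG+EACA+RNase and 154 ± 8.8 in untreated cells. These 3 genes fell with both preparations.

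Of 26 other tested membrane proteins and transporters, 3 rose and 9 fell after PLG+EACA, and 4 rose and 5 fell after PLG+EACA+RNase. Mcoln2, a channel related to Mcoln1, rose 1.74-fold after PLG+EACA and 1.84-fold after PLG+EACA+RNase, averaging 79.3 ± 9.88 after PLG+EACA, 83.8 ± 4.4 after PLG+EACA+RNase and 45.3 ± 3.002 in untreated cells (limma adjusted p = 7.64e-06 and 3.93e-06). Tpcn1, a channel of endosomes and lysosomes, fell 2.28-fold and 1.8-fold, averaging 1.12 ± 0.276 after PLG+EACA, 1.54 ± 0.272 after PLG+EACA+RNase and 3.17 ± 0.198 in untreated cells. The nucleoside transporter Slc29a3 fell as well, averaging 15.7 ± 1.06 after PLG+EACA, 16.9 ± 1.49 after PLG+EACA+RNase and 25.9 ± 0.677 in untreated cells. In the delivery of enzymes by the mannose 6-phosphate and sortilin routes, 2 of 16 rose and 3 fell after PLG+EACA, and 2 rose and 4 fell after PLG+EACA+RNase. Ap1b1, Nagpa and Gga3, an adaptor subunit, the enzyme that uncovers the mannose 6-phosphate tag and a sorting adaptor, fell with both preparations, by log2 values of -0.61, -0.48 and -0.56 after PLG+EACA.

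Among 20 other tested regulators of the MiT factors (the family of TFEB and TFE3) and of mTORC1 at the lysosome, 1 rose and 3 fell with each preparation. After scaling alone, 8 were higher and 3 lower after PLG+EACA (27.3% and 26.4% of all genes tested). After PLG+EACA+RNase 10 were higher and 3 lower (28.4% and 26.4%). The median of this list lay 0.14 and 0.15 (log2) above that of all genes on the deposited scale, in the same order. Lamtor4 and Lamtor1, parts of the Ragulator complex that anchors mTORC1, fell with both; Lamtor4 fell 1.98-fold after PLG+EACA and 1.78-fold after PLG+EACA+RNase. Tfec, another MiT family gene, averaged 13.2 ± 1.23 after PLG+EACA, 9.24 ± 1.37 after PLG+EACA+RNase and 14.2 ± 0.111 in untreated cells. It was lower after PLG+EACA+RNase than after PLG+EACA by -0.50 ± 0.09 (log2, SE; limma adjusted p = 0.00675), a direction opposite to that of Tfeb. Between the preparations 3 of these 20 genes were higher and 1 lower on both scales, beside 10.4% and 8.68% of all genes tested.

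Of 22 tested autophagy genes 2 rose and 6 fell after PLG+EACA, and 2 rose and 4 fell after PLG+EACA+RNase. Sqstm1, the receptor that brings ubiquitinated cargo to autophagosomes, averaged 1295 ± 203 after PLG+EACA, 1276 ± 91.2 after PLG+EACA+RNase and 609 ± 35.5 in untreated cells, a 2.11-fold and 2.09-fold rise (limma adjusted p = 2.94e-06 and 3.64e-06). The kinase gene Ulk2 and the lipid scramblase gene Atg9a fell with both preparations, by log2 values of -0.63 and -0.44 after PLG+EACA. Between the preparations 6 of the 22 were higher and 1 lower on both scales, beside 10.4% and 8.68% of all genes tested, and after scaling alone 2 were lower. Of 23 tested genes of endosome and lysosome fusion, 4 rose and 5 fell after PLG+EACA, and 2 rose and 2 fell after PLG+EACA+RNase. Plekhm1, an adaptor for lysosome fusion, averaged 13.8 ± 1.59 after PLG+EACA, 19.4 ± 1.97 after PLG+EACA+RNase and 22.8 ± 0.562 in untreated cells; it fell 1.64-fold after PLG+EACA and was 0.48 ± 0.087 (log2, SE) higher after PLG+EACA+RNase than after PLG+EACA, with no overlap of libraries (limma adjusted p = 0.00682). Vps11, a core subunit of the tethering complexes, averaged 12.1 ± 0.602 after PLG+EACA, 14.6 ± 1.16 after PLG+EACA+RNase and 17.5 ± 0.999 in untreated cells and was likewise higher after PLG+EACA+RNase than after PLG+EACA (log2 0.26, limma adjusted p = 0.0186). On both scales 2 of the 23 were higher and 2 lower between the preparations, beside 10.4% and 8.68% of all genes tested. Stx17, the autophagosome SNARE, fell with both preparations, averaging 2.27 ± 0.353 after PLG+EACA, 2.38 ± 0.0971 after PLG+EACA+RNase and 3.86 ± 0.152 in untreated cells.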

How the data were processed

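The 12 libraries, grouped by their titles, came from 1 deposited table of FPKM without scaling between libraries; its headers also give gene coordinates and lengths. The submitters' processing notes name GRCm38.p6, featureCounts 2.0.6, STAR 2.7.11a, DESeq2 1.40.2, cutadapt 4.5 and FastQC 0.12.1, with no role or order. Depth was recovered from the steps of FPKM times length, with 100% of values whole within 0.1 of a read.

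Tests used log2(FPKM + 0.5), which understates changes of low genes, in limma 3.58.1 under R 4.3.3: group means in 1 fit, eBayes with trend, two-sided, Benjamini-Hochberg over the 11165 genes that reached 1 FPKM in 4 or more libraries, threshold 0.05. Both scales means FPKM as deposited and after median-of-ratios scaling. The fit was tested on simulated data. The members and lists were chosen with earlier results of these data known. Every library's value is given for up to 3 members a role with the smallest p and for Tfeb, Tfe3, Mcoln1, Atp6v0d1, Atp6v0d2 and Acp5; up to 3 genes of a further list are named, by p. Of 307 list symbols 4 were not matched. Alternatives were other pseudocounts and filters, voom on recovered reads, robust eBayes, a replicate block, fits of 2 groups and leaving out each library.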

Additional observations from a re-analysis of the deposited data

Results flagged for a closer look

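In 10 of the 135 groups of 4 values (45 members in 3 groups), 1 replicate stood apart from the other 3 by more than Dixon's 95% value, which chance does in about 1 in 20 groups. After PLG+EACA, Psap was high in replicate 2 (FPKM 3867, against 3463 to 3504 in the others), Galc was high in replicate 2 (1.737, against 1.505 to 1.513), and Arsb was low in replicate 3 (1.818, against 2.216 to 2.279). After PLG+EACA+RNase, Cd63 was high in replicate 2 (241.2, against 198.5 to 199.7), Glb1 was high in replicate 3 (26.203, against 23.265 to 23.658), Smpd1 was high in replicate 3 (4.979, against 3.922 to 4.052), and Npc1 was low in replicate 4 (15.915, against 20.511 to 21.05). In untreated cells, Atp6v1a was low in replicate 2 (71.563, against 76.68 to 77.377), Atp6v1h was low in replicate 2 (12.537, against 13.388 to 13.452), and Man2b1 was low in replicate 1 (67.512, against 70.388 to 70.508).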

How the results depend on the processing

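Against untreated cells, Tfeb, Tfe3 and Atp6v1h with both preparations and Npc1 after PLG+EACA kept their direction and call in all 22 alternatives, and Tfeb had adjusted p-values of 2.4e-06 to 8.86e-05 after PLG+EACA and 0.000948 to 0.031 after PLG+EACA+RNase (limma). The other members that rose or fell against untreated cells also kept direction and call in every alternative that tested them. Between the preparations Tfeb ranged from 0.00161 to 0.0537. Scaling is the main limit. With median-of-ratios scaling 3050 genes were higher and 2942 lower after PLG+EACA (1661 and 5963 as deposited), with 11 members higher, 12 lower and a member median of -0.032. After PLG+EACA+RNase it gave 3169 and 2953 genes (1783 and 5408), 9 members each way and a median of 0.018. Under it, 14 of the 44 members after PLG+EACA and 16 after PLG+EACA+RNase turned from a negative to a positive log2 value, and 6 from positive to negative between the preparations. Among members given by library and called on either scale these were, with or without the block, after PLG+EACA Lamp1 (0.067), Mcoln1 (0.00349), Psap (0.044) and Arsa (0.00916), and after PLG+EACA+RNase Atp6v0d1 (0.067), Psap (0.15) and Tpp1 (0.025). Between the preparations 2 members were then lower.

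An FPKM minimum of 5 left 3546 genes lower after PLG+EACA, 1115 higher and 3344 lower after PLG+EACA+RNase, and 835 higher between the preparations, from fewer genes tested. With no filter 3306 genes were higher after PLG+EACA+RNase, 636 lower between the preparations and 3 members higher there; members then lay -0.30 and -0.21 from the median of all genes after PLG+EACA and PLG+EACA+RNase, because genes at 0 enter that median. A fit of the 2 groups gave 425 and 310 genes and 0 members higher between the preparations.

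Replicate numbers gave no steady sign of pairing: deviations of same-numbered libraries correlated from -0.1761 to 0.3318. For replicates 2 and 4, PLG+EACA correlated more with the same-numbered PLG+EACA+RNase library (0.1853 and 0.3318) than with other numbers (at most 0.0343 and 0.05835). For replicates 1 and 3 it correlated less (-0.1761 and 0.05526, against at most 0.1181 and 0.1166). Whether libraries were paired cannot be told from these values. With a replicate block 12 members were higher and 1 lower between the preparations. These member counts are not set against all genes from the same fit. With scaling and the block, chosen after seeing the data, 4 members were lower between the preparations. After PLG+EACA 11 were then higher and 13 lower (3091 and 2950 genes, median -0.032). After PLG+EACA+RNase 11 were higher and 10 lower (3249 and 2950 genes, median 0.018).

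Leaving out 1 library gave 1533 to 1700 genes higher and 5598 to 6035 lower after PLG+EACA, 1630 to 1886 and 4976 to 5612 after PLG+EACA+RNase, and 569 to 1922 and 423 to 1306 between the preparations. Members numbered 3 to 3 higher and 28 to 31 lower, 3 to 4 and 24 to 28, and 2 to 14 and 0 to 2 in these comparisons. Between the preparations, leaving out any 1 library moved the number of members higher by over 1.5 times, except PLG+EACA replicates 2 and 3; the cause was not tested. Depth limits Sgsh, at 14 to 50 reads.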
